A study of Mus musculus with 39 samples.

Results

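The adrenergic receptors of brown fat were followed over a diet time course in mice. The members were the 8 genes Adrb1, Adrb3, Adra1a, Adra1b, Adra1d, Adra2a, Adra2b and Adra2c, chosen by name from the gene symbols of the series' fold change table. They had 13 of the 40628 probes on the array and were 8 of 29411 gene symbols. Each gene was read from its brightest probe, the one with the highest mean over the arrays. No rule on measured values chose the genes, but earlier results of these data were known.

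C57BL/6J mice, a common laboratory strain that gains weight readily on fatty food, entered the study after weaning at an age of 3 to 4 weeks, with 30 animals in a group. The LFC group ate a normal diet with 10% of its calories from fat. The HFC group ate a diet rich in sucrose with 60% of its calories from fat. The HF5, HF20 and HF75 groups ate the HFC diet together with 5, 20 or 75 µg of KAL-1, a botanical formulation. Every 3 weeks 5 animals of a group were killed and tissue was frozen for RNA. The labels name the tissue brown infiltrating macrophages (SVCs), where SVCs usually stands for stromal vascular cells, the cells left when fat cells are removed. RNA was hybridised in 1 colour to 39 Agilent arrays, 1 array for each diet and time label. LFC had 10 arrays and HFC had 11, from Day 1 to Week 18. The KAL-1 groups had 6 arrays each, from Week 3 to Week 18. The labels do not say whether an array held 1 animal or a pool. No diet has 2 arrays under 1 time label, so every test sets a difference against the spread over time labels, which may be biological or technical. In 9 array titles the tissue is written BA or BAT, and in the remaining 30 it is written B, B-A or B_A. No label explains the spelling. Of the 9 titled arrays, 7 belong to Week 9 to Week 18 and 2 to Day 1 and Day 6. The HF20 Week 12 array carries a diet label of high fat alone, against its title and source name, and was kept as HF20.

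Adrenergic receptors are the cell surface receptors for noradrenaline, which sympathetic nerves release in brown fat, and for adrenaline. The beta receptors couple to the stimulatory G protein Gs and raise cyclic AMP, the signal that starts fat breakdown and heat production. Adrb3 is the beta receptor best known from fat cells, and Adrb1 is found in fat cell precursors, the heart and other tissues. The alpha 1 receptors Adra1a, Adra1b and Adra1d couple to Gq, which releases calcium, and are well known from smooth muscle of vessels. The alpha 2 receptors Adra2a, Adra2b and Adra2c couple to Gi and lower cyclic AMP. Adra2a and Adra2c also sit on nerve endings, where they restrain the release of noradrenaline.

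A level is given as the log2 intensity of the probe minus the 75th percentile of its array, so 0 stands for the 75th percentile and 1 unit is a doubling. Levels of different probes cannot be compared with each other, and only differences and detection are set side by side. The 75th percentile itself ranged from 18.1 to 3974 intensity units (median 129.9), the share of spots well above background from 31.2% to 98.0%, and 3 arrays had over 10% of their spots marked as outliers. The HF20 Week 15 array had 71.4% marked and gave no value for Adrb1, Adra1a, Adra1b and Adra2c. Macrophage markers were clearly present, with 5 of 9 measured markers well above background on all 39 arrays, among them Emr1, Cd68 and Csf1r. Fat cell markers were present as well. Of 12 general fat cell markers 11 were well above background on all arrays, Adipoq (adiponectin) among them, and so was Ucp1, the uncoupling protein that defines brown fat cells. Fat cell markers were thus measured throughout under a label that names macrophages. Their levels varied, and the lowest Ucp1 level was -3.16 in LFC and -3.18 in HFC, against a median of 6.23 over all arrays. The mean level of the brown fat cell markers was lowest on HFC Week 12 (-3.33) and LFC Day 10 (-1.57). Both of these arrays stayed in the diet contrasts. In bulk RNA fewer cells of a type and less RNA per cell cannot be told apart.

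Adrb3 was the receptor that was detected throughout. Its probe was well above background on 39 of 39 arrays and saturated on 2 of them, LFC Week 12 and HF75 Week 15, where the level is a lower limit. Adra1a, Adra1b and Adra1d were well above background on 33 arrays each. Adra2a reached this on 29 arrays, Adra2c on 27 and Adrb1 on 25. Adra2b was the least detected, on 15 arrays. Detection depends on the brightness of the array as well as on the gene, and the 13 arrays of Week 9 to Week 18 with other titles had a median 75th percentile of 48.8, against 872 on the 7 titled arrays of those weeks.

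Sequence upstream of the start site is shown for Adrb1 and Adra2a, because they are the members with a listed promoter whose levels on the titled arrays of Week 9 to Week 18 did not overlap the others (described below), Adrb1 upward and Adra2a downward. RefSeq promoters on GRCm38.p6 were matched by symbol for 5 of the 8 members, and none was matched for Adrb3, Adra1a and Adra1d. The 250 bases before the start are printed 5′ to 3′ on the strand of the gene (+ for both), at chr19:56721867-56722116 for Adrb1 and chr19:54045009-54045258 for Adra2a. Capitals mark the letters GGGCGG (the GC box, bound by Sp1) and TGACG (a part of the cyclic AMP response element), searched on both strands.
Adrb1: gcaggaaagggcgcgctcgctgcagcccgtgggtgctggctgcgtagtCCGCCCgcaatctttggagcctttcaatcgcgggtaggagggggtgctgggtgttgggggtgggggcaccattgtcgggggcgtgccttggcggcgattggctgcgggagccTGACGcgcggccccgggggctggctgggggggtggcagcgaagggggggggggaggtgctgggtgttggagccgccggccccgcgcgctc
Adra2a: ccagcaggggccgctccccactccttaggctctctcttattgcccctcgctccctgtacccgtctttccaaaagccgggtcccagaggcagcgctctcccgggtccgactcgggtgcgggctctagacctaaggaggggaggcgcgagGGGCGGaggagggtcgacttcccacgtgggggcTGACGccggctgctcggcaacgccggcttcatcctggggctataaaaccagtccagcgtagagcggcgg
Both windows held 1 GC box and 1 TGACG, and none of the matches overlapped. Among 32851 promoters of this length 32.7% held GGGCGG and 17.8% held TGACG. The windows were rich in G and C, with 74.0% for Adrb1 and 67.6% for Adra2a against a median of 52.4% over all promoters. AGGTCA, letters that many nuclear receptors bind and that were found in 14.0% of promoters, was in neither window. These matches are letters in a window and say nothing of binding.

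Adrb3 stood at 2 separate heights over the series. In LFC its level was 1.58 on Day 1, 1.18 on Day 6, 2.06 on Day 10, 2.09 on Day 14, 1.80 at Week 0, 1.96 at Week 3, 2.10 at Week 9, 5.64 at Week 12, 1.77 at Week 15 and 5.22 at Week 18. In HFC it was 0.19 on Day 1, -1.10 on Day 6, 0.88 on Day 10, 1.12 on Day 14, -0.01 at Week 0, 0.73 at Week 3, 5.39 at Week 6, 6.09 at Week 9, 0.38 at Week 12, 2.13 at Week 15 and 1.61 at Week 18. Within both diets most arrays lay close to the middle and 2 arrays lay far above it. In HF5 the levels from Week 3 to Week 18 were 3.25, 1.19, 5.75, 1.06, 6.24 and 2.60. In HF20 they were 2.10, 1.69, 2.96, 5.73, 0.49 and 1.93, and in HF75 1.88, 0.52, 3.02, 2.61, 6.39 and 0.86. In all, 8 arrays lay between 5.22 and 6.39 and the other 31 at or below 3.25, with no array between. Of the 8 high arrays 7 were the titled arrays of Week 9 to Week 18, and the remaining one was HFC Week 6, which has no such title. Every diet held at least 1 high array, and the titled arrays of Day 1 and Day 6 were not high.

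**Figure D1:**
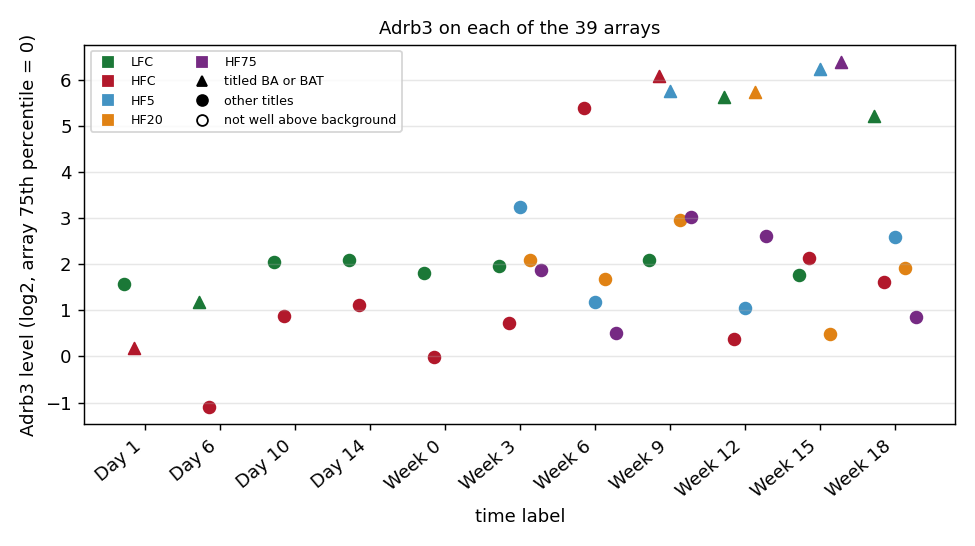
Level of Adrb3 (log2, relative to the 75th percentile of the array) on each of the 39 arrays by time label, coloured by diet, with triangles for arrays titled BA or BAT and circles for other titles. The 7 titled arrays of Week 9 to Week 18 and HFC Week 6 lie between 5.22 and 6.39, and the other 31 arrays lie at or below 3.25.

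The first question was whether the high fat diet changed the receptors. None of the 8 differed between HFC and LFC in a limma fit of diet and time label over all arrays, with Benjamini-Hochberg adjustment over all probes at a threshold of 0.05. Over all 34043 probes tested 0.0% passed, and 959 had an unadjusted p under 0.05, none of them the probe of a receptor. Adrb3 had a fitted difference of -1.0 (SE 0.82, adjusted p = 1.0), with a 95% interval from -2.68 to 0.69. The HFC array was below the LFC array for Adrb3 at 8 of the 10 shared time labels, and the difference ranged from -5.26 at Week 12 to 4.00 at Week 9, where the higher array was a titled one each time. At the 5 time labels where both arrays had other titles the difference was -1.18 on Day 10, -0.97 on Day 14, -1.81 at Week 0, -1.23 at Week 3 and 0.36 at Week 15. Adrb3 was thus lower in HFC at 4 of these 5. The deposited series table has the opposite direction on Day 14, and with Day 14 turned the counts are 3 of 5 and, over all shared time labels, 7 of 10. Without titled arrays the fitted difference shrank to -0.38 (SE 0.67, adjusted p = 1.0), where HFC Week 6 is still in the fit. Without HFC Week 6 but with the titled arrays it was -1.34 (SE 0.77, adjusted p = 0.988). At the 6 time labels whose HFC and LFC arrays were scanned on the same date the mean difference was -2.08, and at the other 4 it was -0.23. This split does not separate scan date from title. The same-date labels include Week 12 (-5.26) and Week 18 (-3.61), where the LFC array was titled. The other labels include Week 9 (4.00), where the HFC array was titled, and Day 1 and Day 6, which each hold a titled array.

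Read by diet, the mean level of Adrb3 was highest in HF5 and lowest in HFC. It was 3.35 ± 2.22 (SD, n = 6) in HF5, 2.55 ± 2.12 (n = 6) in HF75, 2.54 ± 1.55 (n = 10) in LFC, 2.48 ± 1.78 (n = 6) in HF20 and 1.58 ± 2.23 (n = 11) in HFC. No neighbours in this order differ by as much as their SD. The means cover unlike time labels, since LFC and HFC include Day 1 to Week 0 and the KAL-1 diets start at Week 3. From Week 3 on the HFC levels were 0.73, 5.39, 6.09, 0.38, 2.13 and 1.61, and the order was not taken over these weeks alone. With titled arrays left out, and HFC Week 6 too, the order was HF5 2.02 ± 1.07 (n = 4), LFC 1.91 ± 0.20 (n = 7), HF20 1.83 ± 0.89 (n = 5), HF75 1.78 ± 1.08 (n = 5) and HFC 0.72 ± 0.99 (n = 8). HFC was lowest here, again over unlike time labels. HFC Week 6, which has no BA or BAT title, was left out with its high level (5.39) already seen, which lowers the HFC mean. This order therefore adds no support to the one over all arrays. LFC, with levels from 1.58 to 2.10, had by far the narrowest spread. The mean of the fat cell markers over the same LFC arrays was 3.39 ± 0.30 and over the same HFC arrays 2.93 ± 0.70, and its part in the difference was not tested.

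The alpha receptors and Adrb1 gave no call for the high fat diet either. Adrb1 ran from -4.20 to 2.43 in LFC (median -2.06) and from -4.09 to 1.85 in HFC (median -2.52), with a fitted difference of -0.42 (SE 0.76). The groups overlapped over nearly their whole range. All 6 alpha receptors had a positive estimate, from 0.28 (SE 0.63) for Adra2c to 0.84 (SE 0.52) for Adra1b, and the median over the 8 receptors was 0.43 against 0.05 over all probes. The upper ends of their intervals lay between 1.27 and 1.92, so that a doubling in HFC was not shut out by these arrays for any alpha receptor. The direction was not stable either. Each of the 6 turned negative under 1 to 3 of 17 to 19 alternatives, with lowest estimates from -0.79 (Adra1b) to -0.30 (Adra1d). Adra2a and Adra2c also did so with a time label left out, at -0.02 and -0.17. With each probe set relative to Adrb3 on the same array the other 7 receptors had estimates of 0.56 (Adrb1) to 1.82 (Adra1b), and 0 of 7 passed, against 0.0% of all probes. This fit asks whether another receptor moved differently from Adrb3. Its count rested on equal weights for the arrays, since limma's array weights, which count noisy arrays less, gave 7 of 7, in a fit that called 95.7% of all probes. The estimation of array weights stopped with warnings that its tolerance was not reached.

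The second question was whether KAL-1 on top of the high fat diet changed the receptors. The 3 contrasts share the HFC arrays and are not independent. No receptor passed in any of them, and 0.0% of all probes passed in each. With HF5 against HFC 498 probes had an unadjusted p under 0.05, with HF20 907 and with HF75 1210. The Adrb3 estimate was 0.85 (SE 1.02) for HF5, -0.02 (SE 1.02) for HF20 and 0.05 (SE 1.02) for HF75, with intervals of -1.24 to 2.93, -2.11 to 2.07 and -2.04 to 2.13. The HF5 value ranged from 0.16 without titled arrays to 2.26 with array weights. The other estimates reached from -0.67 (Adra2c, HF5) to 1.11 (Adra1d, HF75). Adra1d, the Gq receptor best known from large arteries, was the only receptor with an unadjusted p under 0.05 (0.0381, SE 0.51, adjusted p = 1.0 in limma). Its level in HF75 was -2.31, -2.55, -1.45, -0.59, -1.74 and 0.57 from Week 3 to Week 18, above the HFC array at 5 of 6 time labels. The HF75 Week 18 value is 1 of 2 arrays that stand apart for this gene, as described below. In simulated data with the spread of each fit, drawn independently for each probe, 55% of 4-fold changes were recovered for HFC against LFC. For HF5 it was 28.5%, for HF20 21% and for HF75 33.5%, and none of the 2-fold changes were recovered. These are rates over 200 changed probes picked at random. They are not rates for Adrb3, which had the largest SE of the receptors in each of these contrasts.

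**Figure D2:**
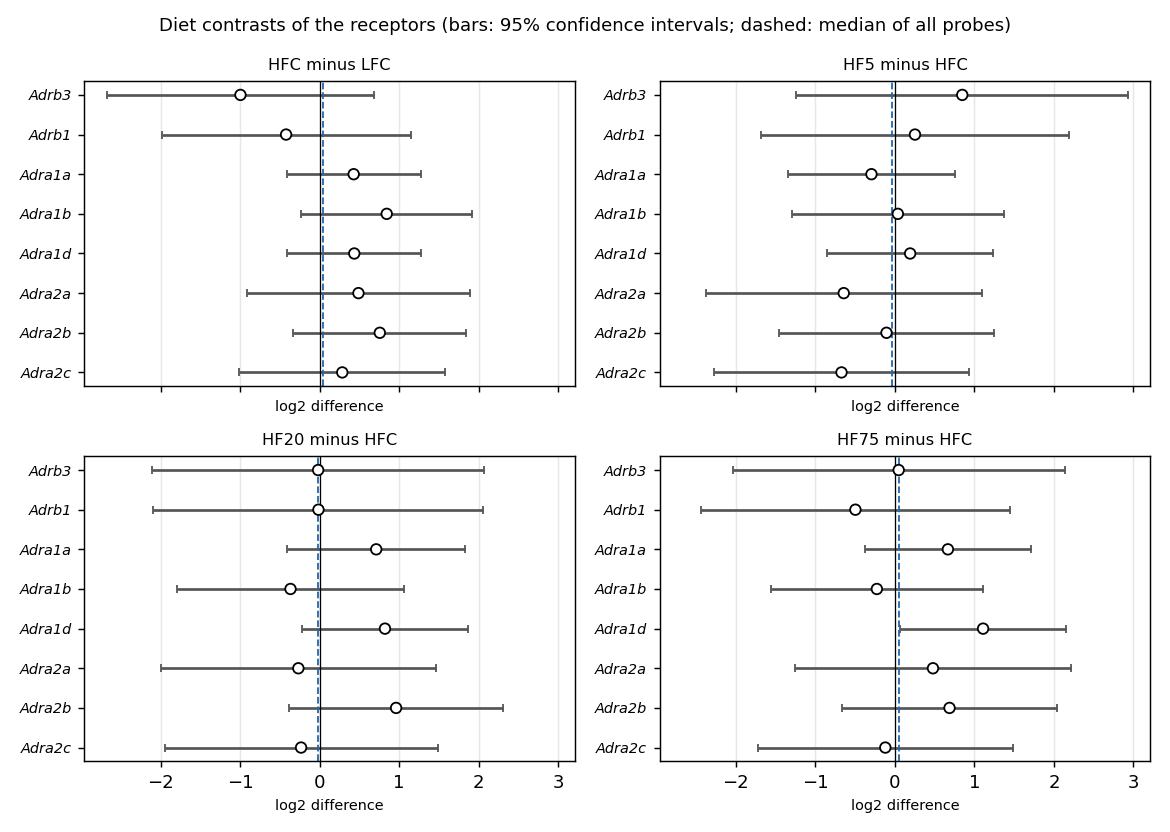
Fitted log2 differences of the 8 receptors in the 4 diet contrasts, with 95% confidence intervals as bars and the median of all probes as a dashed line. Open circles mark adjusted p above 0.05, which holds for all 32 values, and Adra1d in HF75 against HFC (1.11) is the value whose interval lies above 0.

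The third comparison set the 9 titled arrays against the 30 others, with diet and time label in the fit. Both beta receptors were higher on the titled arrays and 3 of the 6 alpha receptors were lower. The contrast moved much of the array, since 52.4% of all probes passed (20.5% higher and 31.8% lower) with a median of -0.30, and 5 of 8 receptors passed, a share near that background. What sets the titled arrays apart is not given in the labels, and so the contrast describes 2 sets of arrays and not a treatment.

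Adrb3 on the 7 titled arrays of Week 9 to Week 18 was between 5.22 and 6.39 (median 5.75), and on the 13 other arrays of these weeks between 0.38 and 3.02 (median 1.93). The ranges did not overlap. Over all arrays Adrb3 was higher by 3.25 (SE 0.54, adjusted p = 0.000128). Because the probe was saturated on 2 of the titled arrays, their levels enter this difference as lower limits. Adrb1, the other beta receptor, was between 0.80 and 2.43 (median 1.22) on the 7 titled arrays and between -3.90 and -1.31 (median -2.43) on 12 others. It was well above background on 7 of 7 titled arrays and on 5 of the 13 others, so its lower levels are partly background. The fitted difference for Adrb1 was 3.26 (SE 0.45, adjusted p = 6.19e-05), almost the same as that of Adrb3. Its second probe, well above background on 17 arrays, had a smaller difference of 1.08 (SE 0.46, adjusted p = 0.0481).

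Among the Gi receptors Adra2a and Adra2c were lower and Adra2b did not pass. Adra2a was between -6.00 and -4.61 (median -5.01) on the titled arrays of Week 9 to Week 18 and between -4.08 and -0.86 (median -2.30) on the others, with no overlap. It was well above background on 6 of the 7 and on 7 of the 13, so these levels are partly background. The fitted log2 difference was -2.35 (SE 0.52, adjusted p = 0.000884). All 3 probes of Adra2a had lower means on the titled arrays of these weeks, by -2.91, -3.14 and -2.65. Adra2c was between -6.00 and -3.83 (median -5.75) against -4.49 to -0.48 (median -2.91). Its probe was well above background on 6 of 7 and 7 of 13 arrays, with the same limit from background on dim arrays. These ranges overlapped at the HF5 Week 9 array, and the fitted difference was -1.91 (SE 0.52, adjusted p = 0.00427). Adra2b had a difference of -1.11 (SE 0.48, adjusted p = 0.0544), which did not pass, on a probe that was dim on most arrays.

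Among the Gq receptors Adra1b alone passed. Its levels were -4.95 to -3.32 (median -4.09) on the titled arrays of Week 9 to Week 18 and -3.48 to 0.68 (median -2.21) on the others. Its probe was well above background on 7 of 7 and 8 of 13 arrays, so the levels on the others are partly background, which can lie higher on dim arrays. The ranges overlapped narrowly, and the fitted difference was -1.49 (SE 0.45, adjusted p = 0.00795). This call was lost without Week 15, where the difference was -0.99 (adjusted p = 0.112). Adra1a (-0.05, SE 0.42, adjusted p = 0.934) and Adra1d (-0.66, SE 0.39, adjusted p = 0.15) did not pass. For Adra1a the probes disagreed. Its second probe, well above background on only 12 arrays, was higher on titled arrays by 2.59 (SE 0.55, adjusted p = 0.000717), so the direction for Adra1a is uncertain.

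Of the 8 receptors 2 had all titled arrays of Week 9 to Week 18 above all others (Adrb3 and Adrb1), and 1 had them below (Adra2a). This held for 8.09% of all probes upward and 7.24% downward. The separation was also present within single scan dates. At Week 12, where all 5 arrays share a date, the titled minus other mean was 4.33 for Adrb3, 3.75 for Adrb1 and -3.55 for Adra2a, and at Week 15, again 1 date, it was 4.85, 3.45 and -3.23. At Week 18 the titled array had a date in common with 2 others and differed from their mean by 3.12, 4.70 and -4.33. At Week 9 the titled and the other arrays had different dates. Some of the other arrays on the shared dates had many spots marked as outliers. The share was 18.6% for HF5 Week 12, 11.1% for HFC Week 12 and 71.4% for HF20 Week 15, which gave no value for Adrb1. The part of the scan date was not tested. The HFC Week 6 array, with no such title, had levels of -0.33 for Adrb1, -3.99 for Adra2a and -5.04 for Adra2c. Its Adrb1 level was the highest and its Adra2c level the lowest of the 29 arrays of other titles with a value.

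**Figure D3:**
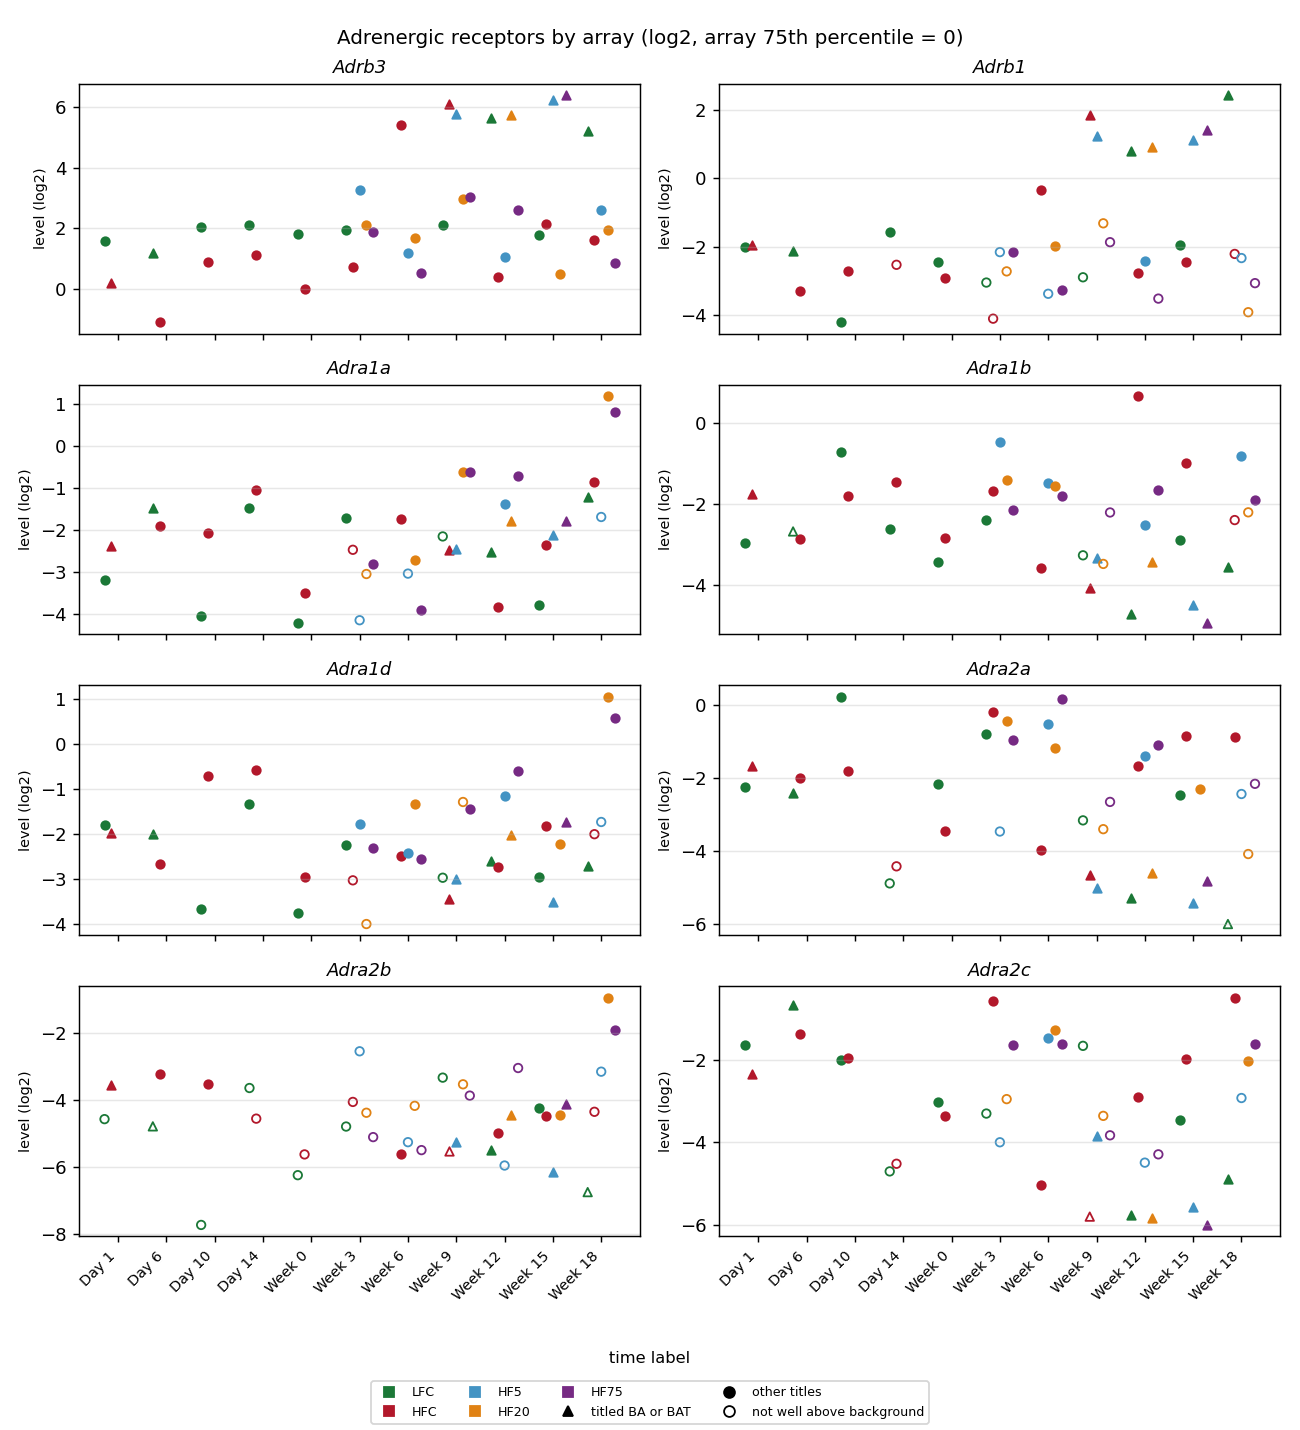
Level of each receptor (log2, relative to the 75th percentile of the array) by time label, 1 panel for each gene with its own axis. Colours give the diet, triangles the arrays titled BA or BAT and open symbols spots not well above background, and from Week 9 on the triangles lie above the circles for Adrb3 and Adrb1 and below them for Adra2a.

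The title contrast was not uniform over the course. On Day 1 and Day 6, with 1 titled and 1 other array each, the fitted title effect was 0.44 for Adrb3 and 0.63 for Adrb1, and at Week 9 to Week 18 it was 3.92 and 3.9. The early pairs were opposite for Adrb3, with titled minus other at -1.39 on Day 1 and 2.28 on Day 6, and the titled array was HFC on Day 1 and LFC on Day 6. The interaction, tested in limma over all probes, was 3.47 (SE 1.22, adjusted p = 0.0379) for Adrb3, 3.27 (SE 0.96, adjusted p = 0.0147) for Adrb1 and -2.72 (SE 1.00, adjusted p = 0.0476) for Adra1b. These 3 of 8 receptors passed, against 24.4% of all probes. Adra2a had -3.00 (SE 1.19, adjusted p = 0.0645), and the remaining 4 receptors had adjusted p of 0.161 or more. The early side of this comparison rests on 2 titled arrays. Their mean fat cell marker level was 3.27 ± 0.62 (SD, n = 2) against 2.70 ± 1.03 (n = 2) on the other arrays of those days, and 5.09 ± 0.36 (n = 7) against 3.31 ± 1.13 (n = 13) at Week 9 to Week 18. The part of the markers was not tested.

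Relative to Adrb3 on the same array, Adrb1 showed no difference in the title contrast (0.14, SE 0.51, adjusted p = 0.782, limma). The 6 alpha receptors all fell against Adrb3, by a log2 difference from -3.16 (Adra1a) to -5.60 (Adra2a). That is 6 of 7 called, but 97.4% of all probes were called in this fit, so it says little that is particular to the receptors.

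Scaling moved the size of these differences and the count of calls. With normexp background correction the median of all probes was -1.30 and 8 receptors passed, 2 higher and 6 lower, with 83.5% of all probes called (27.3% of the calls higher, against 39.2% in the fit above). With quantile normalization between arrays the median was 0.18 and 3 receptors passed, 2 higher and 1 lower, with 30.6% called (66.6% of the calls higher). Adrb3, Adrb1 and Adra2a kept their direction and their call under both. Relative to the median of all probes Adra1b and Adra2c stayed below it under both. Adra1a and Adra2b changed sign with quantile normalization, at 0.04 and 0.30, without passing.

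**Figure D4:**
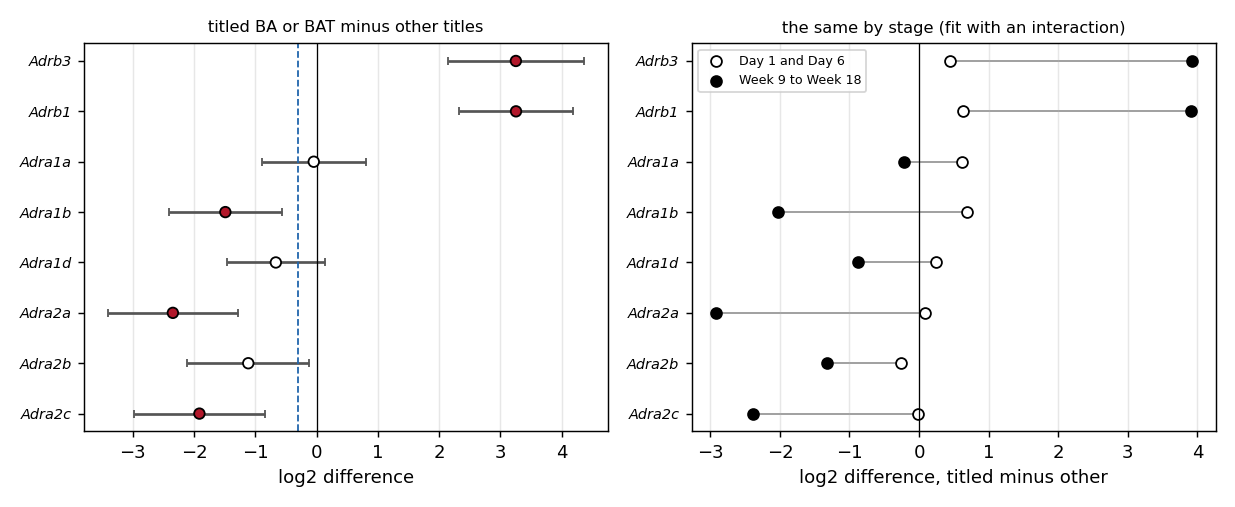
Left, fitted log2 difference of titled minus other arrays for each receptor with 95% confidence intervals, filled where the adjusted p is at or below 0.05, and the median of all probes (-0.30) as a dashed line. Right, the same difference fitted separately for Day 1 and Day 6 (open) and for Week 9 to Week 18 (filled), which lie apart by 3.47 for Adrb3 and 3.27 for Adrb1.

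Markers of cell types moved together with the title, and their part in the receptor differences was not tested. Of 12 general fat cell markers 9 were higher on titled arrays and 1 lower, with a median of 1.78. Plin1 (perilipin, which coats the fat droplet) had 3.41 (SE 0.64, adjusted p = 0.000297) and Adipoq 2.21 (SE 0.49, adjusted p = 0.000969). Adipoq was saturated on 6 of the 7 titled arrays of Week 9 to Week 18 and on 0 of the 13 others, so those titled levels are lower limits. The marker that fell, Fabp4, was saturated on 29 arrays. The mean level of the list was 4.60 to 5.73 on the titled arrays of Week 9 to Week 18 and 0.61 to 4.48 on the others. Of 9 brown fat cell markers 4 were higher and none lower (median 0.89), and 5 of 5 skeletal muscle markers did not pass.

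Markers of other cells were lower on the titled arrays to a varying extent, beside 31.8% of all probes. All 5 neutrophil markers fell (median -4.66), with a mean level of -4.50 to -1.91 on the titled arrays of Week 9 to Week 18 and -0.66 to 5.38 on the others. Of 9 macrophage markers 5 fell and none rose (median -1.06), and 4 of 7 smooth muscle and pericyte markers fell (median -2.45). Of 5 fibroblast markers 3 fell, and of 4 endothelial markers 1. Of the 4 neuron markers tested only Tubb3 was well above background on all 39 arrays, and it fell by 2.56 on the log2 scale. The other neuron markers (Dbh, Nefl and Th) were well above background on 6 to 16 arrays, and their lower values on titled arrays cannot be told apart from background, since the lowest level well above background was between -9.04 and -6.37 on the late titled arrays and up to -3.15 over all arrays. No marker list had a called gene in any of the 4 diet contrasts. The HFC Week 6 array, high for Adrb3, had a mean fat cell marker level of 5.20 and the lowest neutrophil marker level of all arrays (-4.98).

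Adrb3 also followed the fat cell markers among arrays that carry no title. The arrays fall into 2 sets for Adrb3, so the relation is given within the 30 arrays of other titles. There the correlation of Adrb3 with the mean of the 12 markers was r = 0.81 and rho = 0.83 (permutation p = 1e-05, the smallest that 100000 permutations can give, and 7e-05 after Benjamini-Hochberg adjustment over the family of 7 receptors). Without the 2 arrays farthest from the median of the markers r was 0.84, within time labels 0.88, and without HFC Week 6 0.79. The arrays share brightness, which enters every level, and scan dates.

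Among these arrays the other receptors followed the fat cell markers less closely by r, with no test of the difference. Adrb1 had r = 0.44 (n = 29, adjusted permutation p = 0.0539), which dropped to 0.28 without HFC Week 6. Adra2a had r = -0.38 and rho = -0.46, with adjusted permutation p of 0.0904 and 0.0364, and Adra2c r = -0.36 (adjusted permutation p = 0.0929). For Adra1a, Adra1b and Adra1d the adjusted permutation p for r was 0.11 or more. On the 7 titled arrays of Week 9 to Week 18 the marker level ran from 4.60 to 5.73. Adrb3 was saturated on 2 of these arrays and Adipoq, a marker of the list, on 6. There Adrb3 had r = -0.48 (exact permutation p = 0.278) and rho = -0.21 (exact permutation p = 0.662). In the same arrays Adra1a had r = 0.87 (exact permutation p = 0.0109, adjusted over the 7 receptors 0.0764) and Adrb1 r = 0.75 (exact permutation p = 0.0567, adjusted 0.199).

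**Figure D5:**
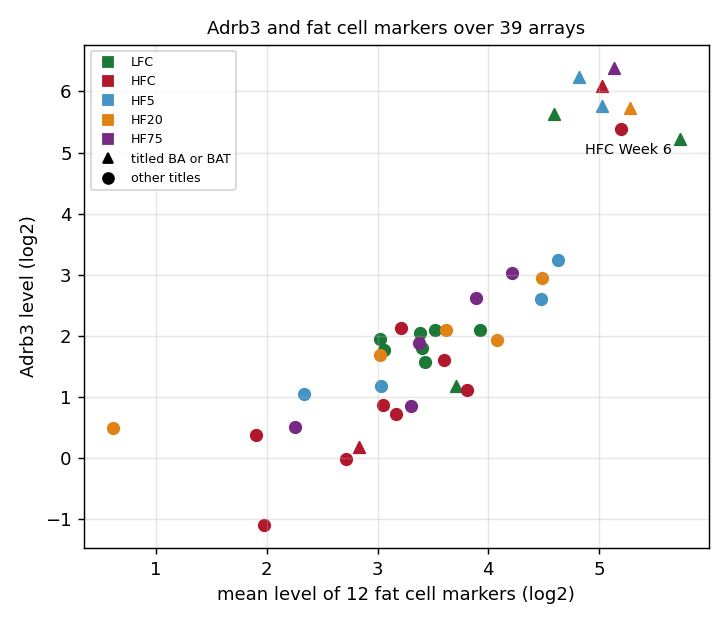
Level of Adrb3 against the mean level of 12 general fat cell markers (both log2) on the 39 arrays, coloured by diet, with triangles for arrays titled BA or BAT. Among the 30 circles r is 0.81, and the 7 late titled arrays and HFC Week 6 form a separate group at the upper right.

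Time on the diet was the fourth comparison, over the 21 LFC and HFC arrays. No receptor had a slope over log2 days that passed, and neither did any other probe (0.0% called in limma, 4057 at an unadjusted p under 0.05). Adrb3 had a slope of 0.46 for each doubling of the days (SE 0.16, p = 0.0102 unadjusted, adjusted p = 0.284), and 0.25 (SE 0.17) without titled arrays, all of which but those of Day 1 and Day 6 come late. The other slopes ran from -0.25 (Adra2c) to 0.28 (Adrb1). Relative to Adrb3, 3 of 7 receptors passed (Adra1d -0.57, Adra2b -0.57 and Adra2c -0.71, adjusted p = 0.046, 0.0477 and 0.047), against 53.0% of all probes. Both the count and the share fell to 0 without HFC Week 6 and without titled arrays.

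Weeks were counted from Day 14, so Day 14 and Week 0 name a single day. They give the only repeat in the series, on arrays of different scan dates. Adrb3 was lower at Week 0 than on Day 14 by -0.29 in LFC and -1.14 in HFC. Adra1a differed by -2.74 and -2.44, Adra1d by -2.42 and -2.37, and Adra2a by 2.72 and 0.97. Both diets moved the same way for each of these genes, with Day 14 as labelled in the scanner files. The deposited series table has the opposite direction on Day 14. With Day 14 turned, Adrb3 would go from 1.12 to 1.80 in LFC and from 2.09 to -0.01 in HFC, in opposite ways. For Adra1a and Adra1d the repeats differed by more than the largest diet estimate of any alpha receptor (1.11).

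A pair of arrays stood apart for 3 of the alpha receptors, a pattern chosen after the values were seen and given without a test. HF20 Week 18 and HF75 Week 18, which share a slide and a scan date that the other Week 18 arrays do not have, had Adra1a at 1.18 and 0.81, where the highest of the other 36 arrays was -0.62. Adra1d was 1.05 and 0.57 against at most -0.58, and Adra2b -0.94 and -1.91 against at most -2.54. For 6.54% of all probes both arrays lay above all others, and for these 3 of 8 receptors. The mean level of the neutrophil markers was 5.38 on HF20 Week 18, above all other arrays (at most 4.19). On HF75 Week 18 it was 3.28, which did not stand apart. In the other marker lists both arrays lay within the range of the other arrays. Dose, slide and date cannot be told apart here.

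The genes of the signalling chain behind the receptors moved in both directions in the title contrast, and none passed in the others. The lists were set by role, and their counts stand beside 52.4% of all probes called (20.5% higher and 31.8% lower). Of 21 genes of the Gs and cyclic AMP arm 6 were higher and 4 lower on titled arrays, with a median of -0.16 against -0.30 over all probes. Adcy3, an adenylyl cyclase that makes cyclic AMP, had 2.77 (SE 0.48, adjusted p = 0.000188) and Akap1, which anchors protein kinase A at mitochondria, 3.19 (SE 0.58, adjusted p = 0.000276). Prkaca, the catalytic subunit of that kinase, had 1.97 (SE 0.42) and Gnas, the Gs alpha subunit itself, 1.88 (SE 0.43). Of 5 Gi genes 1 was higher (Gnao1, 1.5, SE 0.42) and 1 lower (Gnaz, -1.94, SE 0.57), with a median of -0.18. Of 14 Gq genes 4 were higher and 5 lower (median -0.31). Itpr2, a calcium release channel, had 2.18 (SE 0.38), while the kinase Prkcb had -2.28 (SE 0.40), the phospholipase Plcb4 -2.68 (SE 0.51) and the G protein Gna14 -2.74 (SE 0.63).

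Genes that end the signal and that handle noradrenaline also moved in both directions in the same contrast. Of 8 tested genes of receptor desensitisation 1 was higher and 2 lower (median -0.19). Adrbk2, a receptor kinase, had 2.22 (SE 0.46), Grk4, another, -1.86 (SE 0.41) and the arrestin Arrb2 -1.52 (SE 0.36). Of 10 phosphodiesterase genes, whose products break down cyclic AMP, 3 were higher and 3 lower (median -0.20). Pde3b had 2.17 (SE 0.43), Pde4a 1.91 (SE 0.38), Pde4d 1.73 (SE 0.33) and Pde4b -2.52 (SE 0.47). Of 8 genes of noradrenaline synthesis and clearance 3 were higher and 3 lower (median -0.16). Maob (2.16, SE 0.55) and Comt1 (1.53, SE 0.39), which degrade noradrenaline, were higher, and Dbh (-2.34, SE 0.53), the enzyme that makes it, on a probe well above background on 16 arrays, and Slc18a1 (-1.54, SE 0.37), a vesicle transporter, were lower. All named genes of these lists passed, with adjusted p of at most 0.00707 in limma.

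No gene of these 6 lists passed in a diet contrast or in the slope. The genes with the smallest p for HFC against LFC, none past the threshold, were Creb1 (-0.46, SE 0.25), Gnai1 (-0.28, SE 0.35), Prkce (-0.40, SE 0.32), Adrbk1 (-0.23, SE 0.23), Pde3b (-0.88, SE 0.59) and Comt1 (-1.07, SE 0.48), all with adjusted p = 1.0. For HF5 they were Prkacb (-1.35, SE 0.64), Gnaz (1.42, SE 0.84), Gnaq (-0.43, SE 0.40), Grk5 (-0.43, SE 0.32), Pde7b (1.12, SE 0.46) and Slc18a1 (0.61, SE 0.58). For HF20 they were Adcy8 (2.87, SE 1.35), Gnai3 (-0.66, SE 0.45), Itpr2 (-1.18, SE 0.70), Rgs2 (-0.64, SE 0.46), Pde7a (-0.85, SE 0.44) and Dbh (1.82, SE 0.85), and for HF75 Adcy1 (1.64, SE 0.92), Gnai1 (0.35, SE 0.43), Plcb3 (-0.64, SE 0.41), Grk4 (1.35, SE 0.67), Pde7b (0.98, SE 0.46) and Slc18a1 (0.76, SE 0.58). For the slope they were Adcy6 (0.26, SE 0.10), Gnai2 (-0.21, SE 0.09), Gna11 (-0.11, SE 0.07), Grk6 (-0.23, SE 0.06), Pde10a (-0.29, SE 0.08) and Comt1 (0.23, SE 0.06), with adjusted p of 0.184 or more.

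The genes most like each receptor over the arrays were found among 13478 genes well above background on at least 30 arrays. Because the arrays fall into sets, r over all arrays is given beside r over the arrays of other titles without HFC Week 6, as a description. Adrb3 was most like Ddo, the D-aspartate oxidase (r = 0.95, and 0.84 among the others), Kctd1 (0.94 and 0.81), Mrap, an accessory protein of melanocortin receptors (0.94 and 0.81), Ndufb5, a subunit of respiratory complex I (0.94 and 0.77) and Slc2a4, the insulin-regulated glucose transporter and 1 of the 12 fat cell markers (0.94 and 0.77). Adrb1 was most like Timm9, which helps import proteins into mitochondria (0.94 and 0.74), and Arfrp1 (0.92 and 0.57). Adra2a was most like Cyp7b1, a hydroxylase of oxysterols (0.94 and 0.93), and Fam38b (0.92 and 0.89). For these last 2 the likeness was nearly as high without the titled arrays.

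For the remaining receptors r over all arrays was lower. Adra1a was most like Sebox (0.76 and 0.86) and Apln, the peptide apelin (0.76 and 0.80), and Adra1d like Sebox as well (0.87 and 0.89) and Antxrl (0.86 and 0.85). Adra1b was most like Icosl, a T cell costimulator (0.87 and 0.70), and Il33, a cytokine (0.86 and 0.72). Adra2c was most like Csrp1 (0.86 and 0.74) and 1190003M12Rik (0.85 and 0.64). Adra2b was not set against other genes because it was well above background on fewer than 20 arrays.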

How the data were processed

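Gene expression in tissue labelled brown infiltrating macrophages was read from 39 Agilent arrays for mouse genes, with 1 dye. Per the file headers, the deposited scanner files hold spot intensity (processed signal after background subtraction by Feature Extraction 10.5.1.1, while the submitters' processing notes name 9.1), not yet normalized from array to array. A table of the whole series, also deposited, gives log2 values that the authors shifted to the 75th percentile and set against the LFC array of the same time label, and it was used as an alternative. Its Day 14 columns ran opposite to the scanner files (r = -0.995 for HFC minus LFC over probes), and its Week 12 HFC column had r = 0.778.

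The processed signal was taken as log2 minus the 75th percentile of the array. Spots marked as outliers were left out and spots of a probe averaged. Probes well above background on at least 6 arrays were tested (34043). Groups follow the labels. The tests were those of limma 3.58.1 (R 4.3.3) with diet and time label as terms, two-sided, and Benjamini-Hochberg adjustment over all probes. The slope used log2 days and the LFC and HFC arrays. The fit was run by pattern of missing values, checked against limma on 300 probes, and tested on simulated data. Correlations with fat cell markers, planned over all arrays, were run within sets because Adrb3 fell into 2 clusters. The time label was the block. Whether time labels pair the arrays was checked from HFC and LFC residuals, whose correlation was between -0.54 and 0.81 with a median of 0.18, so they do not all pair. Arrays have no read depth, and the number of arrays and the brightness of each limit the precision. Members are all named. Of the pathway lists the genes past the threshold are named, at most 4 for a list and contrast by smallest p, or else the gene with the smallest p. The 5 genes most like Adrb3 and the 2 most like each other receptor detected on at least 20 arrays are also named. The members, lists and tests were chosen with earlier results of these data known. Alternatives were other background corrections, normalizations, filters, probes, blocks, array weights, the methods' t-test and the leaving out of arrays. Settings with the title as a further term, without HFC Week 6, without LFC Day 10 and HFC Week 12 (where Ucp1 is low), with Week 9 to Week 18 only, and the interaction were chosen after seeing the data. Promoters are from RefSeq (GRCm38.p6). Other computation used Python 3.11.15 with numpy 2.4.6, pandas 2.3.3 and scipy 1.17.1, blocks used statmod 1.5.0 and figures matplotlib 3.10.9.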

Additional observations from a re-analysis of the deposited data

Results flagged for a closer look

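Among 32 groups of 4 to 10 arrays that were checked for an array far from the rest, 3 had one. Chance alone flags about 1 in 20 of the groups checked. HFC, with 11 arrays, was outside this size and was not checked. Adrb1 on HF75 Week 15 was 1.42, and the nearest of the 6 HF75 arrays was -1.86 (gap over range 0.666, critical value 0.625). Adra1b on the same array was -4.95, with the nearest at -2.21 (0.831). This is the titled array of HF75. Adra2b on HF20 Week 18 was -0.94, with the nearest HF20 array at -3.53 (0.740).

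The effect of the title differed between Week 9 to Week 18 and Day 1 and Day 6 by a tested interaction (limma) for 3 receptors. This interaction passed for 24.4% of all probes. The difference of the effects was 3.47 for Adrb3, 3.27 for Adrb1 and -2.72 for Adra1b.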

How the results depend on the processing

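Adrb3 kept its direction and its side of the threshold under every alternative run in the contrasts of HFC against LFC, HF5 against HFC and the title and in the slope, with a title difference of 2.75 to 4.17 (2.68 to 3.78 when time labels were left out in turn). For HF20 it ran from -0.79 to 1.81 and for HF75 from -0.49 to 1.61, changing sign without passing. No receptor passed in a diet contrast or in the slope under any alternative. In the title contrast 5 receptors passed (52.4% of all probes), against 8 with normexp (83.5%) and 3 with quantile normalization (30.6%). The second probe of Adra1a gave 2.59 (adjusted p = 0.000717), the reverse of the brightest probe. Adra1b lost its call with quantile normalization (-0.73), with its second probe (-0.98) and without Week 15, and Adra2c with quantile normalization (-0.99). Adra2b passed under 7 alternatives and with 3 time labels left out. Relative to Adrb3, HFC against LFC gave 7 receptors (95.7% of all probes) with array weights and 0 (0.0%) otherwise. Relative to Adrb3, the slope gave 3 receptors (53.0% of all probes), but 0 (0.0%) with normexp, without a filter on dim probes, with outlier spots kept, without titled arrays and without HFC Week 6, 5 without arrays with over 10% of spots marked (79.2%) and without LFC Day 10 and HFC Week 12 (76.0%), and 6 with scan date as a random block (79.2%) and with the title as a further term (80.8%). With time labels left out in turn it gave 0 to 5 (0.0% to 66.0%). The causes of these moves were not tested. Leaving out the replicate block (the time label) changed no call of Adrb3 and no count of receptors called, with an Adrb3 title difference of 2.96 and an HF5 difference of 1.76. The second probe and the methods' t-test were not run relative to Adrb3, and the slope has no time label block. The share of all probes called in the title contrast fell to 29.6% without Week 12 and 30.3% without Week 9. Dim arrays limit Adra2b, Adrb1 and Adra2c most. Well above background on unmarked spots, Adrb1 was detected on 24 arrays.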
